A study of Mus musculus with 2 samples.

Results

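The growth factors VEGF and PDGF and their receptors were described here across the cells of transplanted mouse hearts. The set held 10 genes, which were *Vegfa*, *Vegfb*, *Vegfc*, *Flt1*, *Kdr*, *Nrp1*, *Pdgfa*, *Pdgfb*, *Pdgfra* and *Pdgfrb*, chosen by name from the 22337 gene symbols of the matrix. Earlier results of these data were known when it was chosen. Bm12 donor hearts, which carry an altered MHC class II molecule, had been placed into C57BL/6 (B6) recipients and taken at postoperative day (POD) 14. Of 6 grafts, 3 came from Bm12 donors labelled WT (IL-33+) and 3 from Bm12 donors labelled IL33 KO (IL-33-). All recipients were B6 mice, so the labels place the deletion in the donor only. Density gradient isolates of the digested grafts were tagged by heart and run as a single droplet capture, and the authors annotated the 4441 cells as 14 types. Donor ages, and the Il33 allele beyond its name, are not given in the sources used here.

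VEGF ligands are secreted signals for the growth and permeability of blood vessels. VEGFA binds the tyrosine kinase receptors FLT1 (VEGFR1) and KDR (VEGFR2), of which KDR carries most of the signal in endothelium while FLT1 binds tightly and signals weakly. NRP1 is a co-receptor for VEGFA and for class 3 semaphorins. PDGF ligands are dimers that act on PDGFRA and PDGFRB, the receptors of fibroblasts and of the mural cells (pericytes and smooth muscle) around vessels. In a heart, PDGFB from endothelium is known to recruit mural cells, and PDGFRA marks the resident fibroblasts.

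Levels are given in CPM, the UMIs of a gene (unique molecular identifiers, 1 per captured transcript) scaled to the total of the cell. For each heart a mean was taken over all its cells of a given type, and the heart is the replicate. Hearts gave between 230 and 1666 cells and between 908138 and 7012961 UMIs, with 1500 to 14977 UMIs per cell and a median of 3700. WT heart 2 and IL33 KO heart 2 were the smallest, and several types had under 10 cells in them. Levels of different genes are not set against each other here, since 3′ tags carry no length scale. The *Il33* transcript did not check the labels: in annotated fibroblasts it was at 24.3, 0 and 50.7 CPM in the WT hearts and at 32.6, 73.8 and 16.1 CPM in the IL33 KO hearts. Whether the tagged 3′ end lies in the deleted part is not given in the sources used here, and directions below are those of the hearts as labelled.

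Of the 10 genes, 8 had a promoter window in the RefSeq table for GRCm38.p6. Windows of *Flt1*, *Kdr* and *Pdgfra* are printed because they separate the cells annotated fibroblasts, with *Flt1* and *Kdr* found together in some cells and *Pdgfra* in others. Each line gives the 250 bases before the transcript start that the table uses, 5′ to 3′ on the gene's own strand. RefSeq also lists a transcript that begins further upstream for each of these genes, so the windows lie inside the gene spans given below. Capitals mark GGAA on either strand, which is the core read by ETS factors of endothelium and many other cells, and TGACGTCA, the cyclic AMP response element. The motifs do not overlap in these windows.
Flt1: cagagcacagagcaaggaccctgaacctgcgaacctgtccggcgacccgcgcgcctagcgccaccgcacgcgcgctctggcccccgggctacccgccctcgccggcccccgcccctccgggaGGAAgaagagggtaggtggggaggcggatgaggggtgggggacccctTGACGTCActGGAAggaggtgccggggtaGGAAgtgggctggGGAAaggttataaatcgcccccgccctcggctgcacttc
Kdr: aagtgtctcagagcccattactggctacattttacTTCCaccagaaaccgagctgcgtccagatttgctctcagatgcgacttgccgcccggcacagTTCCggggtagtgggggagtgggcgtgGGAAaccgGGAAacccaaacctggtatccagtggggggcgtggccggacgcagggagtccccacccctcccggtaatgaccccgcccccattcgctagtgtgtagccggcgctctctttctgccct
Pdgfra: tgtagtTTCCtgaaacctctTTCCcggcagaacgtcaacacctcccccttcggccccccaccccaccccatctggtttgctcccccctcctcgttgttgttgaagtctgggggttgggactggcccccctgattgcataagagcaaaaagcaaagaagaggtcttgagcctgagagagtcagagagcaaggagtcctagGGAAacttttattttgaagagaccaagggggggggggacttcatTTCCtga

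The windows lie at chr5:147726012-147726261 on the minus strand for *Flt1*, chr5:75978456-75978705 on the minus strand for *Kdr* and chr5:75152001-75152250 on the plus strand for *Pdgfra*, so *Kdr* and *Pdgfra* are on the same chromosome. Each window held 4 copies of GGAA, a motif present in 93.4% of the 32851 promoter windows, whose median was 3. TGACGTCA was in the *Flt1* window and in 1.55% of all windows, and these letters were not in those of *Kdr* and *Pdgfra*. The *Flt1* window also held TATAAA, the core promoter motif, which 12.4% of windows share.

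*Vegfa* (chromosome 17, 46016993 to 46032377) is the principal VEGF ligand and was the most widely detected member, with 6799 UMIs in 2113 cells (47.6%). In CPM it was at its highest in NK cells, not in macrophages or fibroblasts. NK cells averaged 839 ± 109.9 CPM (SD, n = 6 hearts), with 711, 852 and 911 CPM in the WT hearts and 1008, 741 and 812 CPM in the IL33 KO hearts. In 5 of 6 hearts NK cells were the highest type. The exception was WT heart 3, in which annotated Mo-DCs (monocyte-derived DCs) stood at 1015 CPM. NK cells, which were 931 of the 4441 cells, held 32.8% of all *Vegfa* UMIs. CPM is relative to the total of a cell. Median depths were 2712 UMIs in NK cells, 5741 in NKT cells, 6606 in macrophages and 10175 in unconventional T cells. The order given is therefore not one of transcripts per cell.

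NKT cells followed at 579.5 ± 124.4 CPM, below NK cells in all 6 hearts. Mo-DCs (451 ± 389.7 CPM), unconventional T cells (399 ± 229 CPM), macrophages (323 ± 182 CPM) and fibroblasts (289 ± 69.7 CPM) then formed a group in which neighbours did not differ beyond the spread over hearts. Mo-DCs, for example, were above unconventional T cells in 4 of 6 hearts, and macrophages were above fibroblasts in 3 of 6. The remaining types ran from 156 CPM in cDCs to 42.2 CPM in Tem/eff cells. Monocytes, at 111 ± 44.4 CPM, were among them.

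**Figure D1:**
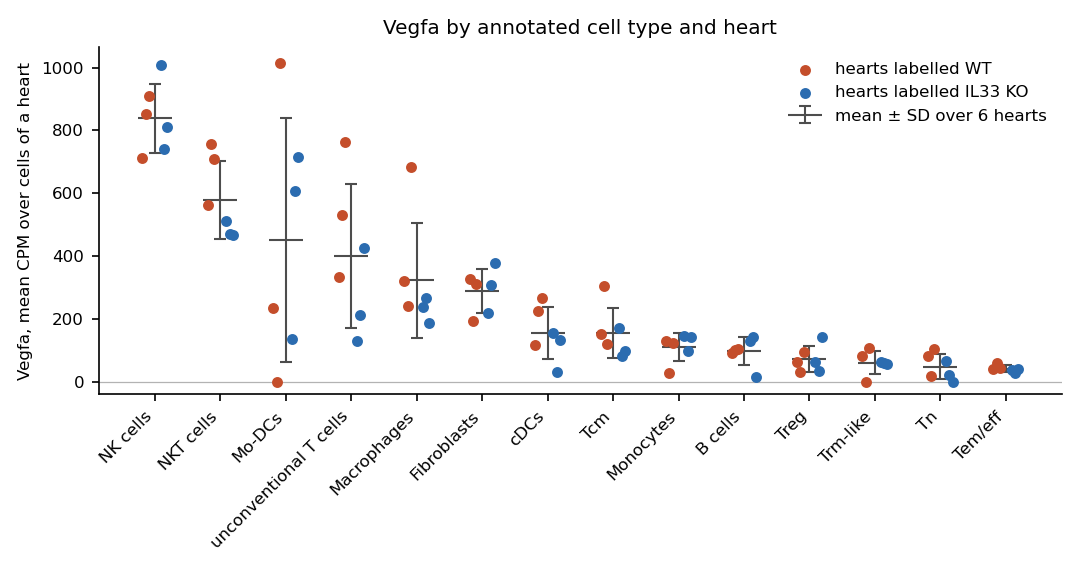
*Vegfa* level (mean CPM over the cells of a heart) for the 14 annotated types, ordered by their mean, with each heart as a point (red, labelled WT; blue, labelled IL33 KO) and the mean ± SD over 6 hearts in grey. NK cells lie between 711 and 1008 CPM in all hearts, while Mo-DCs spread from 0 to 1015 CPM.

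These 6 types kept their order in the share of cells with a *Vegfa* UMI. To set shares side by side, each cell was thinned to 1500 UMIs, so these shares too are relative to the total of a cell. A UMI was then left in 62.4% of NK cells, 49.3% of NKT cells, 42.2% of Mo-DCs, 41.0% of unconventional T cells, 34.3% of macrophages and 32.5% of fibroblasts. Naive T (Tn) cells, not known as a source of VEGF, gave 10.7%, and B cells gave 13.6%. Before thinning the shares were 74.4% in NK cells (95% exact binomial interval 71.5 to 77.2%, median depth 2712 UMIs) and 16.5% in Tn cells (median depth 2764 UMIs), and intervals cover counting error only. The NK cells carried their defining genes: *Gzma* was at 5962 CPM, *Eomes* at 1013 CPM and *Klrb1c* at 194 CPM, while the T cell receptor gene *Cd3e* was at 18.1 CPM.

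Mo-DCs and unconventional T cells were mixed by their markers. Of 204 annotated Mo-DCs, 46 had at least 4 of 8 neutrophil markers, a limit set after seeing the data. *Vegfa* averaged 1072 CPM over those cells and 584 CPM over the other 158, of which 27 and 84 came from WT heart 3. The hearts did not share this direction. In WT heart 3 the levels were 1556 and 841 CPM, and the neutrophil-marked cells were also higher in IL33 KO hearts 2 and 3, where they numbered 2 and 1. They were lower in WT heart 1 (0 against 256 CPM, 3 cells) and in IL33 KO heart 1 (42.7 against 208 CPM, 12 cells), and WT heart 2 had no *Vegfa* UMI on either side. Unconventional T cells held markers of both lists, at 2359 CPM of summed macrophage markers and 596 CPM of summed T cell markers. The sums are over different genes and are not set against each other, and the median depth was 10175 UMIs. The part of these markers in the *Vegfa* level was not tested.

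*Vegfb* (chromosome 19, 6982472 to 6987651), a ligand of FLT1 tied to cardiac metabolism, and *Vegfc* (chromosome 8, 54077532 to 54186454), the lymphatic VEGF, were scarce. *Vegfb* had 79 UMIs in the whole matrix, of which 25 were in fibroblasts, and its order across types did not hold from heart to heart. Cardiomyocytes, whose markers summed to at most 32.3 CPM in any annotated type, were hardly captured. *Vegfc* had 66 UMIs, with 46 in fibroblasts (17.4 ± 9.82 CPM), which were the highest type in 5 of 6 hearts.

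*Pdgfa* (chromosome 5, 138976014 to 139000792) makes the ligand that acts on PDGFRA. Fibroblasts had 145 ± 78.3 CPM, NKT cells 83.3 ± 35.1 CPM and macrophages 77.2 ± 49.4 CPM. The NKT level was spread over all hearts, at 134, 113 and 76.1 CPM in the WT hearts and 81.7, 49.4 and 45.2 CPM in the IL33 KO hearts. NK cells, next to NKT cells in their markers and above them in *Vegfa*, had 34.5 ± 24.7 CPM of *Pdgfa*.

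*Pdgfb* (chromosome 15, 79995865 to 80024614), known mainly from endothelium and platelets, was at its highest mean in macrophages with 109.9 ± 77.2 CPM. The macrophage hearts were uneven, with 43.8, 108 and 75.1 CPM in the WT hearts and 98.4, 261 and 73.2 CPM in the IL33 KO hearts. NK cells were even, at 82.3 ± 18.2 CPM and between 59.8 and 114 CPM in each heart, and after thinning 11.8% of them kept a *Pdgfb* UMI against 8.16% of macrophages. Fibroblasts as annotated had 47.2 ± 50.1 CPM, and their part with endothelial markers, described below, averaged 163 CPM over hearts. Summed platelet markers were at 133 CPM in macrophages and 10.6 CPM in NK cells, and their part in the macrophage level was not tested.

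**Figure D2:**
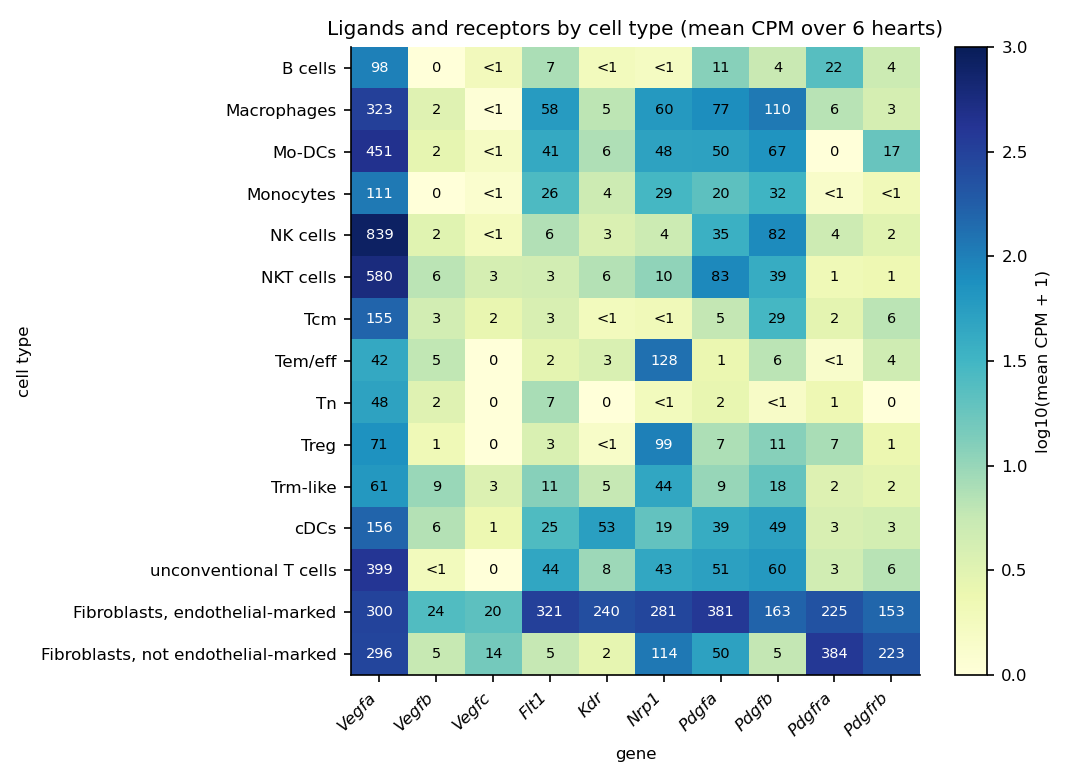
Mean CPM over hearts of the 10 genes (columns) in 13 annotated types and in the annotated fibroblasts split by endothelial markers (rows), with the colour on a log10(CPM + 1) scale. *Vegfa* is spread across lymphoid and myeloid types, *Nrp1* stands out in Tem/eff cells and Treg, and *Flt1* and *Kdr* are high in the endothelial-marked cells.

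Among the receptors, *Pdgfra* (chromosome 5, 75151322 to 75198206) and *Pdgfrb* were nearly confined to fibroblasts in UMIs. Fibroblasts held 791 of 849 *Pdgfra* UMIs (93.2%) and 432 of 488 *Pdgfrb* UMIs (88.5%), and were the highest type for both genes in all 6 hearts. *Pdgfra* was at 408, 381 and 396 CPM in the WT hearts and at 262, 183 and 307 CPM in the IL33 KO hearts. *Pdgfrb* was at 223, 79.9 and 177 CPM in the WT hearts and at 142, 376 and 242 CPM in the IL33 KO hearts. No *Pdgfra* UMI was found in 204 Mo-DCs (median 2310.5 UMIs per cell), which allows a share of up to 1.47% of cells with a UMI and sets no limit on cells that express the gene. The mean of 22.2 CPM in B cells rested on 2 UMIs.

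*Flt1* (chromosome 5, 147561604 to 147726438) was at 102 ± 77.4 CPM in fibroblasts and 57.8 ± 24.0 CPM in macrophages. Macrophages gave 98.2, 58.5 and 31.0 CPM in the WT hearts and 53.7, 68.0 and 37.5 CPM in the IL33 KO hearts. A *Flt1* UMI was present in 111 of 429 macrophages, of which 3 carried at least 2 of 8 endothelial markers, and 93 carried at least 3 macrophage markers. Over all 429 macrophages these numbers were 6 and 327. *Cdh5*, the endothelial cadherin, had 2 UMIs in the 111 cells and 8 in all macrophages. Unconventional T cells (44.0 ± 48.7 CPM), Mo-DCs (40.8 ± 33.8 CPM), monocytes (25.9 ± 20.7 CPM) and cDCs (24.6 ± 33.1 CPM) followed, and lymphoid types other than unconventional T cells were at 11.3 CPM or less. After thinning, 6.76% of macrophages and 6.49% of monocytes kept a UMI.

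*Kdr* (chromosome 5, 75932827 to 75979072) had 285 of its 398 UMIs in fibroblasts (71.2 ± 62.2 CPM). cDCs were next, at 52.7 ± 56.7 CPM, and all other types were at 8.31 CPM or less. The cDC hearts were at 56.1, 34.7 and 6.53 CPM (WT) and at 44.2, 162 and 12.8 CPM (IL33 KO). Of 171 cDCs, 20 had a *Kdr* UMI, and 2 of those 20 had at least 2 endothelial markers. The 20 cells had 1256 CPM of *Ccr7* and 492 CPM of *Fscn1*, genes of migratory dendritic cells, against 918 and 385 CPM over all cDCs. Other dendritic cell markers went both ways. *Flt3* was at 151 CPM in the 20 cells and at 256 CPM over all cDCs. *Clec9a* was at 10.2 against 28.9 CPM, *Xcr1* at 0 against 22.0 CPM and *Itgae* at 0 against 9.68 CPM. *Zbtb46* (89.2 against 72.3 CPM) and *Cd209a* (560 against 483 CPM) were higher. Genes of plasmacytoid dendritic cells, *Siglech*, *Ccr9*, *Bst2* and *Tcf4*, were at 163, 382, 512 and 709 CPM against 282, 419, 596 and 630 CPM. Means of several endothelial markers were higher in the 20 cells by a larger factor than *Ccr7* and *Fscn1*. *Cdh5* was at 52.4 against 10.7 CPM, *Egfl7* at 34.0 against 5.73 CPM and *Tie1* at 11.3 against 2.52 CPM. *Emcn* and *Ramp2* were each at 34.0 against 3.97 CPM. *Pecam1* was at 78.0 against 54.2 CPM, and *Esam* and *Cldn5* were at 0 in these cells. Equal means for *Egfl7*, *Emcn* and *Ramp2* can come from very few cells, and the number of cells behind each mean is not given here. The part of endothelial RNA in the *Kdr* level of cDCs was not tested.

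*Nrp1* (chromosome 8, 128358591 to 128505476) was shared by stroma and T cells. Fibroblasts had 165 ± 92.4 CPM, Tem/eff cells 128 ± 21.6 CPM and Treg 99.0 ± 51.4 CPM, while Tn and Tcm cells were at 0.823 and 0.999 CPM. Tem/eff hearts were even, at 134, 98.2 and 152 CPM (WT) and at 131, 148 and 107 CPM (IL33 KO). NRP1 is a known surface marker of mouse Treg that arise in the thymus. After thinning, however, a UMI was left in 16.2% of Tem/eff cells and 9.89% of Treg.

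Within these T cells *Nrp1* went with *Cd4* UMIs. In Tem/eff cells 107 of 218 cells with a *Cd4* UMI (49.1%, interval 42.3 to 55.9%) had an *Nrp1* UMI, against 33 of 109 without (30.3%, 21.8 to 39.8%), at similar median depths of 5666.5 and 5749 UMIs. In annotated Treg the shares were 25.8% (40 of 155) and 10.2% (11 of 108). They were 11.8% (6 of 51) in Treg with a *Foxp3* UMI and 21.2% (45 of 212) in those without, with overlapping intervals of 4.44 to 23.9% and 15.9 to 27.4%. Cells of a type come from the same hearts, so these shares are a description.

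The cells annotated fibroblasts were not all fibroblasts by their markers. Of 375, 105 (28.0%, interval 23.5 to 32.8%) had UMIs of at least 2 of 8 endothelial markers, and they are called endothelial-marked here. These cells held 2091 CPM of summed endothelial markers, with *Pecam1*, *Cdh5* and *Cldn5* highest, against 151 CPM in the other 270. Fibroblast markers such as *Dcn* and *Col1a2* summed to 12582 and 33314 CPM, so the endothelial-marked cells were not free of fibroblast RNA. WT heart 3 gave 75 of the 105 and 195 of the 270, and WT heart 2 and IL33 KO heart 2 gave 2 and 1 endothelial-marked cells.

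The split parted the family. Over cells, *Flt1* averaged 490.2 CPM in endothelial-marked cells and 4.50 CPM in the others, and *Kdr* averaged 405 and 1.97 CPM. Both were higher in endothelial-marked cells in 5 hearts and at 0 on both sides in IL33 KO heart 2. *Pdgfb* followed with 149 and 4.21 CPM, and *Pdgfa* with 260.3 and 37.2 CPM. *Pdgfra* went the other way, at 210.2 CPM in endothelial-marked cells and 441 CPM in the others, and was lower in endothelial-marked cells in 5 of 6 hearts. *Pdgfrb* (125 and 207 CPM) and *Vegfa* (213 and 345 CPM) were closer. *Vegfa* was lower in endothelial-marked cells in 5 of 6 hearts, while *Pdgfrb* was higher in 3 hearts and lower in 3. *Nrp1* was higher in endothelial-marked cells in 5 of 6 hearts.

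Among annotated fibroblasts the same cells held both VEGF receptors and seldom held *Pdgfra*. A *Flt1* UMI was found in 59 cells and a *Kdr* UMI in 52, with both in 41. Of the 70 cells with either, 61 were endothelial-marked and 13 (18.6%) had a *Pdgfra* UMI, against 76.1% of the cells with neither. *Pdgfrb* did not part in this way: 144 of 188 cells with its UMI (76.6%) had a *Pdgfra* UMI too. At least 4 of 9 mural cell markers, a limit set after seeing the data, were found in 20 cells, of which 17 were also endothelial-marked, and in these 20 *Pdgfrb* averaged 417 CPM while *Pdgfra* had 1 UMI.

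**Figure D3:**
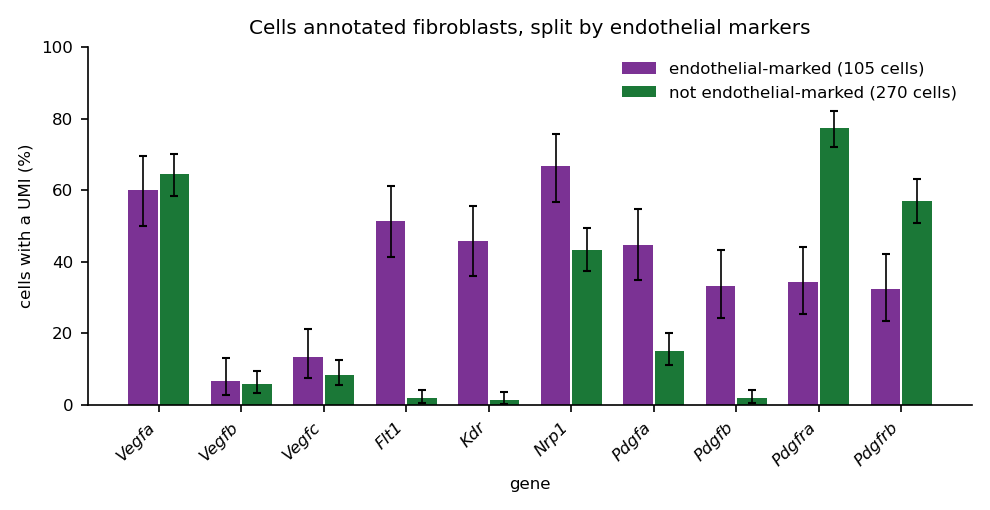
Share of cells with a UMI of each gene in annotated fibroblasts that were endothelial-marked (purple, 105 cells) or not (green, 270 cells), with exact binomial 95% intervals. *Flt1* is at 51.4% and 1.85%, *Kdr* at 45.7% and 1.48%, and *Pdgfra* at 34.3% and 77.4%.

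Both the sizes of these groups and the contrast followed the limit on markers. With at least 3 markers 65 cells remained, and *Flt1* averaged 785 CPM in them and 5.41 CPM in the rest, with *Pdgfra* at 39.8 and 447 CPM. With at least 1 marker the group held 58.7% of the cells, with *Flt1* at 236 CPM and *Pdgfra* at 348 CPM.

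The other genes of the family were placed in the same types. *Pgf*, a further ligand of FLT1, had 247 UMIs and was at 56.3 ± 46.8 CPM in fibroblasts, with 134 CPM over endothelial-marked cells and 24.3 CPM over the others. *Flt4*, the receptor of VEGFC, had 50 UMIs and was at 76.6 and 0.845 CPM. *Nrp2*, the co-receptor of VEGFC, was at its highest in macrophages with 240 ± 136 CPM, the highest type in 5 of 6 hearts, and cDCs followed with 125 ± 54.7 CPM. *Pdgfrl*, a receptor-like gene, was at 57.4 CPM over endothelial-marked cells and 121 CPM over the others. *Vegfd*, *Pdgfc* and *Pdgfd* had 59, 52 and 28 UMIs.

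For each member the genes of the whole matrix with the most similar profile were found, by Pearson's r of log2(CPM + 10) across 15 profiles (13 annotated types and both parts of the fibroblasts) among 11579 genes with at least 50 UMIs. *Pdgfra* ran with *Sema5a* (r = 0.99) and *Nes* (0.99), and *Pdgfrb* with *Il17d* (0.99) and *Cyp1b1* (0.99). *Kdr* ran with *Apol7c* (0.95) and *Neurl1b* (0.94), *Flt1* with *Upp1* (0.94) and *Nod2* (0.93), and *Nrp1* with *Kctd17* (0.92) and *Bmpr2* (0.90). The match was weakest for *Vegfa*, with *Cd9* (0.86) and *Rhoq* (0.83), and for *Pdgfb*, with *Tbkbp1* (0.86) and *Gm17024* (0.83). *Cd9* peaked in Mo-DCs and *Rhoq* in annotated fibroblasts that were not endothelial-marked, instead of NK cells. *Nes* peaked in endothelial-marked cells, at 21.1 CPM, and not with *Pdgfra* in the others. *Gm17024* reached 7.70 CPM at its highest, near the limit of detection. *Vegfb* (*Wdr7* and *Hectd2*), *Vegfc* (*Gpx7* and *Mecom*) and *Pdgfa* (*Cul1* and *Gm43111*) ran with genes that, like *Gm43111* at 12.2 CPM, were in part near the limit of detection. All profiles come from the same 6 hearts and 1 capture.

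The design asked whether these genes differ between grafts with and without IL-33. No member was called in any type by limma, with 0.05 as the limit on the p adjusted by Benjamini and Hochberg's method. The 10 genes gave 63 tests (those with at least 10 UMIs and a UMI in at least 3 hearts), and adjusted p-values lay between 0.595 and 1.00. Over all genes and types 10 of 113178 tests were called (0.00884%). At an unadjusted p of 0.05 or less, 15 of the 63 tests (23.8%) passed, 12 of them higher in WT hearts, against 4.71% of all tests, and limma-voom gave 14 of 63 against 5.08%. Without IL33 KO heart 2 the count fell to 8 of 60 (13.3%), against 3.52% of all tests. Without the filter it was 13 of 131 (9.92%), against 3.44%. These 63 tests share 10 genes and 6 hearts, and 6 of the 15 are *Vegfa*. The set was chosen with earlier results of these data known, so shares above those of all tests, here and below, are a description.

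The median log2 fold change (WT over IL33 KO, on a log2(CPM + 10) scale) was 0.12 over the 63 tests and 0.00 over all tests. It was positive in 35 and negative in 28. The SE of a single test had a median of 0.47 and ran from 0.13 to 1.29, with the largest in Mo-DCs.

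**Figure D4:**
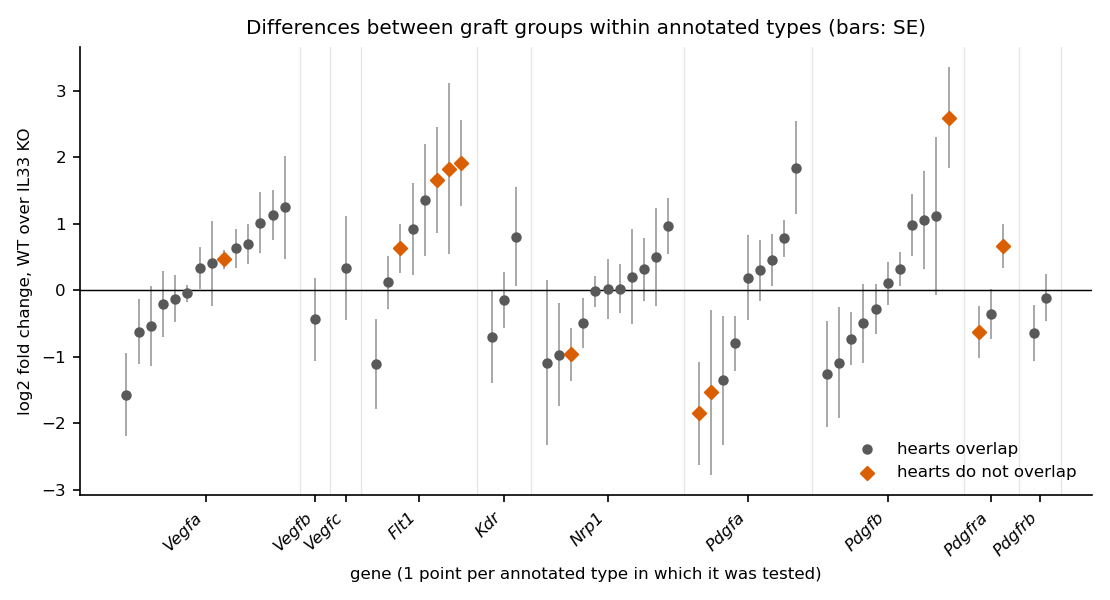
Log2 fold change (WT over IL33 KO hearts) with its SE for the 63 tests, grouped by gene and ordered within a gene. Orange diamonds are the 11 tests in which no WT heart overlapped an IL33 KO heart, and all 4 of the *Flt1* ones are positive.

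In 11 tests the hearts of the groups did not overlap, 7 with WT hearts higher (11.1%, background 4.87%) and 4 with WT hearts lower (6.35%, background 4.94%). The exact two-sided permutation p of each is 0.1, the smallest that 3 against 3 hearts allow. *Flt1* made up 4 of the 7. In monocytes it was at 47.1, 40.3 and 35.9 CPM in the WT hearts and 0, 0 and 31.9 CPM in the IL33 KO hearts (log2 fold change 1.66, SE 0.80, adjusted p = 0.965 by limma). In cDCs it was at 42.9, 84.0 and 11.3 CPM against 9.68, 0 and 0 CPM, for a log2 fold change of 1.92. Of all genes tested, 4.91% were higher in WT hearts without overlap in monocytes and 7.34% in cDCs. Mo-DCs gave 85.1, 75.9 and 41.5 CPM against 14.4, 0 and 28.1 CPM, and NK cells 7.31, 8.35 and 13.9 CPM against 4.29, 0 and 4.29 CPM.

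*Flt1* did not follow this pattern where it was highest. Macrophages gave a log2 fold change of 0.12 (SE 0.39) and fibroblasts 0.92 (SE 0.69), both with overlapping hearts. Neither sign was stable: the fibroblast value was -0.34 without IL33 KO heart 2, 1.94 without IL33 KO heart 1 and -0.24 with hearts under 10 cells left out, and the macrophage value was -0.22 without WT heart 1 and -0.07 without IL33 KO heart 3. The 4 myeloid and NK values rest on few transcripts, since all monocytes together held 29 *Flt1* UMIs and all cDCs 19. Their size follows the pseudocount, and the monocyte value was 3.71 with 1 CPM and 0.63 with 50 CPM.

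*Vegfa* did not overlap in NKT cells, with 562, 757 and 708 CPM in the WT hearts and 512, 470.4 and 468 CPM in the IL33 KO hearts. The log2 fold change was 0.46 (SE 0.15, adjusted p = 0.924 by limma), and the exact permutation p was 0.1. Every heart had at least 17 NKT cells and 71 *Vegfa* UMIs there. Of all genes tested in NKT cells, 4.09% were higher in WT hearts without overlap. In NK cells, where *Vegfa* was highest, the groups overlapped.

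In macrophages *Vegfa* was at 320.1, 241 and 684 CPM in the WT hearts and 238, 266 and 187 CPM in the IL33 KO hearts, with WT heart 3 apart and the others overlapping. The log2 fold change was 0.70 (SE 0.30, adjusted p = 0.987 by limma, exact permutation p = 0.2), and 0.27 without WT heart 3. The difference between macrophages and monocytes in each heart was larger by 1.32 on the log2 scale in WT than in IL33 KO hearts (exact permutation p = 0.2). WT hearts were at 1.23, 2.74 and 2.39 and IL33 KO hearts at 0.67, 1.36 and 0.37. The value of WT heart 2 rests on 10 macrophages and on 5 monocytes with 1 *Vegfa* UMI.

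The other *Vegfa* results at an unadjusted p of 0.05 or less were overlapping. They were cDCs (log2 fold change 1.02), Tcm (0.63), unconventional T cells (1.13) and, with the opposite sign, Mo-DCs (-1.57). The Mo-DC value depends on WT heart 2, whose 4 cells had no *Vegfa* UMI, while the group means were 417 and 486 CPM. It was 0.31 without that heart, 0.62 with all hearts under 10 cells left out and 0.51 by limma-voom. Unconventional T cells numbered 2 in WT heart 2 and 4 in IL33 KO heart 3.

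In annotated fibroblasts *Pdgfra* did not overlap, at 395 ± 13.1 CPM in WT hearts against 251 ± 62.8 CPM in IL33 KO hearts (n = 3 each, log2 fold change 0.66, SE 0.33, adjusted p = 0.998 by limma). WT heart 2 and IL33 KO heart 2 gave 6 and 4 annotated fibroblasts, with 14 and 8 *Pdgfra* UMIs. Of all genes tested in fibroblasts 4.85% were higher in WT hearts without overlap. Without the endothelial-marked cells, an alternative added after seeing the data, the hearts were at 436, 572 and 473 CPM (WT) and 369.7, 200.1 and 254 CPM (IL33 KO), a log2 fold change of 0.86. *Pdgfrb* had the opposite sign (-0.64, SE 0.42) and overlapped, and was at 0.09 with hearts under 10 cells left out. *Pdgfra* in macrophages was lower in WT hearts, at 2.48, 0 and 3.77 CPM against 5.38, 4.81 and 17.9 CPM, on 16 UMIs in all (log2 fold change -0.63, and -0.33 without IL33 KO heart 3).

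*Pdgfb* in annotated fibroblasts was at 111, 106 and 43.1 CPM in the WT hearts and 23.4, 0 and 0 CPM in the IL33 KO hearts (log2 fold change 2.60, SE 0.76, adjusted p = 0.998 by limma). Nearly all of these UMIs, 95 of 102, were in endothelial-marked cells. Those numbered 7, 2 and 75 in the WT hearts and 15, 1 and 5 in the IL33 KO hearts, so 21 cells stand behind the lower group. Among endothelial-marked cells *Pdgfb* was at 472, 318 and 148 CPM (WT) and 38.2, 0 and 0 CPM (IL33 KO). The part of the number of endothelial cells captured in this difference was not tested.

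**Figure D5:**
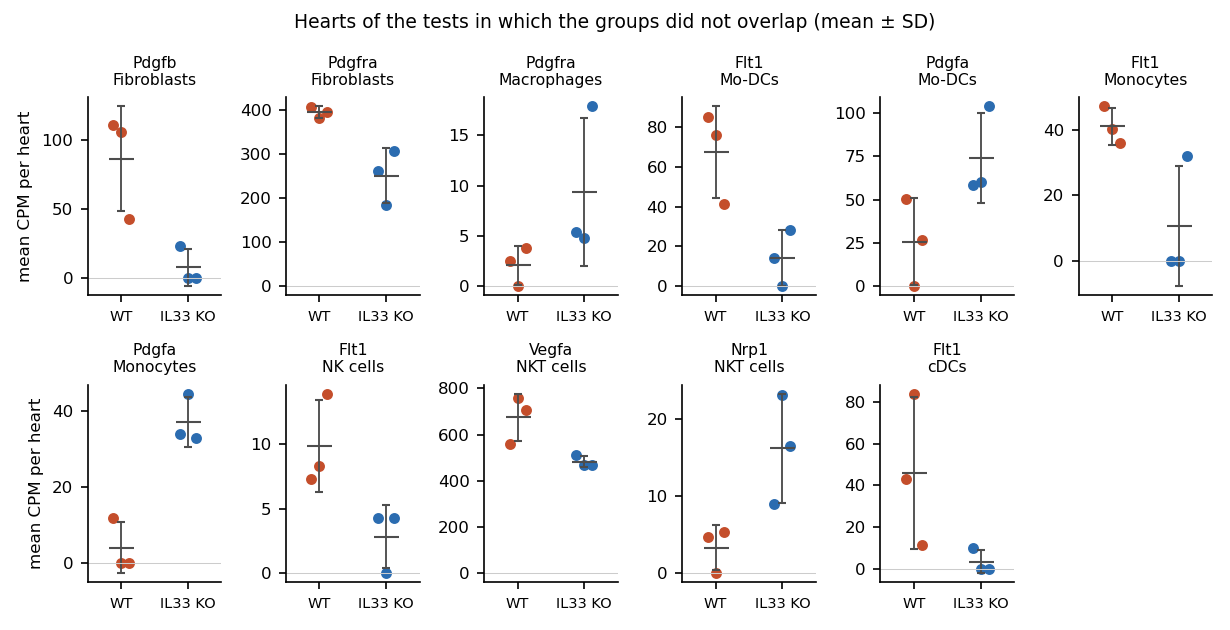
Mean CPM per heart (points; red, labelled WT; blue, labelled IL33 KO) with mean ± SD for the 11 tests without overlap. *Vegfa* in NKT cells and *Pdgfra* in fibroblasts have no heart at 0, while in each of the other 9 at least 1 heart is at 0.

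*Pdgfa* was lower in WT hearts without overlap in monocytes, at 11.7, 0 and 0 CPM against 33.9, 44.5 and 32.7 CPM (log2 fold change -1.85, background 4.69%), and in Mo-DCs, at 50.1, 0 and 26.9 CPM against 58.3, 59.9 and 104 CPM (log2 fold change -1.54, and -0.79 without WT heart 2). In NKT cells (0.78) and cDCs (1.85) the sign was opposite and the hearts overlapped. *Nrp1* in NKT cells was also lower in WT hearts, at 4.69, 0 and 5.39 CPM against 9.02, 23.2 and 16.5 CPM. In Treg it was at 174, 137 and 86.8 CPM in the WT hearts and 39.9, 107 and 49.6 CPM in the IL33 KO hearts (log2 fold change 0.97, SE 0.42, adjusted p = 0.923 by limma), where WT heart 3 fell below IL33 KO heart 2.

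The 7 other family genes gave 17 tests, with 0 called, 0 without overlap and 1 at an unadjusted p of 0.05 or less, against 4.71% of all tests. *Nrp2* in macrophages was at 116, 475 and 98.6 CPM in the WT hearts and 228, 279 and 241 CPM in the IL33 KO hearts. The single result at that level was *Nrp2* in unconventional T cells, at a log2 fold change of -1.78.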

How the data were processed

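Single-cell RNA-Seq was measured in 6 hashed grafts (3 hearts per group). The authors aligned reads with Cell Ranger to mm10, filtered cells in Partek Flow 10.0.23.0425 and deposited a matrix of log2(CPM + 1) values with an annotation of type, graft group and heart. Whole UMIs were recovered from the smallest steps (99.9% of low values within 0.05 of a whole number; 20 symbols, none named, were not whole). Cell types were the authors' own, no doublet caller was run and no cell was removed. The gene set and the marker lists were chosen with earlier results of these data known.

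Mean CPM per heart and type plus 10 CPM was log2 transformed and fitted in R 4.3.3 with limma 3.58.1 (eBayes with trend), for genes with at least 10 UMIs and a UMI in at least 3 hearts, with Benjamini-Hochberg adjustment over the genes of a type. Fits were tested on simulated data. Single values were compared by two-sided exact permutation over the 10 divisions of the hearts. Types were not tested against each other, since the same cells define them. Shares were compared after thinning to 1500 UMIs and have exact binomial (Clopper-Pearson) intervals of 95%. Named genes were the 10 members, 7 other family genes, the 2 closest profiles to each member, *Il33* and the highest genes of fixed lists. *Ccr7*, *Fscn1*, *Flt3*, the other dendritic cell genes named beside *Kdr* and the *Cd4* and *Foxp3* splits were chosen after their values were seen. Alternatives changed the filter, pseudocount, summing, scaling, test, cells and hearts. Python 3.11.15 with numpy 2.4.6, pandas 2.3.3, scipy 1.17.1 and matplotlib 3.10.9 was used elsewhere. Sequences and positions are RefSeq's for GRCm38.p6.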

Additional observations from a re-analysis of the deposited data

Results flagged for a closer look

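*Pdgfra* had opposite signs in 2 types. All WT hearts were above all IL33 KO hearts in annotated fibroblasts and below them in macrophages. The effects differed by 1.29 on the log2 scale, on 791 UMIs in fibroblasts and 16 in macrophages. The exact permutation p of this difference was 0.1, which decides nothing. A gene picked for groups that part in opposite ways can give no other result.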

How the results depend on the processing

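No paired analysis was possible because the hearts carry 1 to 3 in one group and 4 to 6 in the other, so no number is shared. The count of 0 members called held under the 8 other settings. With a heart left out it ran from 0 to 1, the 1 being *Vegfa* in unconventional T cells without WT replicate 1 (adjusted p = 0.031 by limma, where its other alternatives gave 0.278 to 1.00). Genes called over all types were 10, and 67 without the filter, 3 with a pseudocount of 1 CPM, 37 with 50 CPM, 28 by limma-voom and 1 after quantile normalization. With a heart left out they ran from 4 to 108 (55 without IL33 KO replicate 3, 73 without WT replicate 3, 108 without WT replicate 1, 24 without IL33 KO replicate 1 and 4 without IL33 KO replicate 2). *Vegfa* in macrophages kept its sign and stayed uncalled, at 0.27 to 1.01. The difference between macrophages and monocytes ran from 1.01 to 1.76. The 11 tests without overlap kept their sign in all 152 alternatives that gave a value, and none was called. These tests were picked for hearts that do not overlap. Leaving out hearts, changing the pseudocount or dropping the filter could therefore not reverse their sign. Of the 11, *Vegfa* in NKT cells and *Pdgfra* in fibroblasts also stayed within 1.5 times their size, while the other 9 moved further with the pseudocount. The causes were not tested. Leaving out hearts with under 10 cells in a type left 13 of 14 types. Depth limits the rare types, where a mean over under 10 cells moves with single UMIs.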

Other observations

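Hypoxia-response genes, a list of 13 that includes glycolysis genes such as *Pgk1* and *Ldha*, did not share the order of *Vegfa*. Their summed level was 1895 CPM in fibroblasts, 1875 CPM in macrophages and 1466 CPM in Tem/eff cells, and 761 CPM in NK cells, where *Vegfa* was at its highest. *Hk2*, the inducible hexokinase, was at 726 CPM in fibroblasts and 14.2 CPM in NK cells. Between the groups 0 of the 12 genes tested in macrophages were called by limma. Of these, 11 had a positive and 1 a negative log2 fold change (WT over IL33 KO), with a median of 0.56 against -0.05 over all 9683 genes tested there, and 3 were at an unadjusted p of 0.05 or less, as were 4.04% of all genes there. In Mo-DCs all 9 tested were positive, with a median of 0.41 against -0.01. The genes of the list were read in the same hearts, so their signs are not independent and these counts are a description. Group results of the list in other types are not given here.

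Genes of the angiopoietin pathway and of the endothelial answer to VEGF (12 genes) summed to 998 CPM in endothelial-marked cells and 132 CPM in the other annotated fibroblasts. *Angpt2*, an angiopoietin released by activated endothelium, was at 178 CPM in the former, *Apln*, a peptide of sprouting vessels, at 121 and 5.39 CPM, and *Plvap*, a part of fenestrated endothelium, at 139.9 and 1.59 CPM. Of the 8 tested between groups in annotated fibroblasts, 6 were positive and 2 negative, with a median of 0.92 against 0.07 over all genes tested, and 0 were called, with 1 at an unadjusted p of 0.05 or less, as were 3.16% of all genes there. These 8 genes were read in the same hearts too, so their signs are a description. *Prox1* and the other lymphatic markers summed to 59.3 CPM in endothelial-marked cells.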
